A study of Mus musculus with 12 samples.

Results

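The 8 genes Marco, Msr1, Mrc1, Clec7a, Clec4n, Clec4e, Axl and Mertk, chosen by name because they encode surface receptors with which macrophages bind and take up microbes and dying cells, were followed in airway macrophages (AMs). They were 8 of the 20551 genes in the count table, and all 8 had enough counts to be tested. Expression was measured by RNA sequencing in 12 libraries from mice on a C57BL/6 background, aged 6 weeks per the study's methods. Scnn1b-Tg mice carry an Scnn1b transgene, a subunit of the epithelial sodium channel, driven by the club cell secretory protein (CCSP) promoter in airway epithelium, and develop mucus obstruction. Wild-type (WT) littermates were the controls. AMs of either genotype were cultured for 12 h with 100 ng/ml lipopolysaccharide (LPS) of P. aeruginosa or with complete medium alone, which gave 4 groups of 3 libraries each, named here by genotype and culture (WT medium and WT LPS, and the same for Scnn1b-Tg). Each of 6 pools, combined from the lavages of 3 to 4 animals per the labels, gave 1 medium and 1 LPS library. The pools were numbered 16, 17 and 18 in WT and 17, 18 and 19 in Scnn1b-Tg mice, so that a number shared by both genotypes names different animals. The labels describe lavage cells that adhered to the plate, whereas the methods of the study speak of flow cytometric sorting from digested lungs, and which of these applied to the 12 libraries was not settled here. In bulk samples of this kind, a lower level cannot be told apart from fewer cells that express the gene.

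Macrophages recognise particles through several receptor families. Scavenger receptors bind polyanionic ligands such as bacterial lipids and modified lipoproteins: MARCO and MSR1 are trimeric class A scavenger receptors, and MARCO is a characteristic receptor of AMs for unopsonised bacteria and inhaled particles. The C-type lectins bind glycans or glycolipids. MRC1 (the mannose receptor, CD206) is an endocytic receptor for mannosylated glycoproteins, CLEC7A (dectin-1) binds fungal beta-glucans and carries its own signalling motif, and CLEC4N (dectin-2) and CLEC4E (mincle) bind fungal mannans and mycobacterial or damage-derived glycolipids and signal through the Fc receptor gamma chain, encoded by Fcer1g, and the kinase SYK. AXL and MERTK are receptor tyrosine kinases of the TAM family that recognise phosphatidylserine on dying cells through the bridging proteins GAS6 and PROS1 and promote efferocytosis.

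The promoter sequences of 4 members that changed with LPS in both genotypes, Marco and Clec4e upwards and Mrc1 and Mertk downwards, are shown so that genes of opposite direction can be read side by side. They are RefSeq windows of the GRCm38.p6 build holding the 250 bases before the annotated start, read 5′ to 3′ on the gene's strand, at chr1:120505025-120505274 (Marco, minus strand), chr6:123289872-123290121 (Clec4e, minus strand), chr2:14229164-14229413 (Mrc1, plus strand) and chr2:128698665-128698914 (Mertk, plus strand). Capitals mark matches to 7 letter patterns that were searched on both strands.
Marco: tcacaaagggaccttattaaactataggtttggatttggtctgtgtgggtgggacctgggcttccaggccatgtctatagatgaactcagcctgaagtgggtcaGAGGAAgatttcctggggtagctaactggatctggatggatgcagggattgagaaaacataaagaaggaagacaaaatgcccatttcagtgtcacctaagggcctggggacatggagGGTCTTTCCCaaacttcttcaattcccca
Clec4e: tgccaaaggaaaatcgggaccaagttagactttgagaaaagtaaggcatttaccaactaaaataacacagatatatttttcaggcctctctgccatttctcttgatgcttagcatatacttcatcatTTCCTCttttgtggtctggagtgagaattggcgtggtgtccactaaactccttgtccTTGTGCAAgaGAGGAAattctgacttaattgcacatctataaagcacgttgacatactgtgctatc
Mrc1: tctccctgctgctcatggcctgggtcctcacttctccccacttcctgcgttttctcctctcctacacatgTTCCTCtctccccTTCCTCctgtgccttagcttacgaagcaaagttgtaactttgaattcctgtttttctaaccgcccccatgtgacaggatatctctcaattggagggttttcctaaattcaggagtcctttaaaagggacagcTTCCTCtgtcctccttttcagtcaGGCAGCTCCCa
Mertk: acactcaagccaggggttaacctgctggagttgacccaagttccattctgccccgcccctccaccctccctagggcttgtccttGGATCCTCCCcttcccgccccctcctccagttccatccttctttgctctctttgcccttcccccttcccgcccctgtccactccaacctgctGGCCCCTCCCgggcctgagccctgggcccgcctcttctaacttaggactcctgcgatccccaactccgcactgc
The patterns were GGGA followed after any 4 bases by CC (NF-kB), TGANTCA (AP-1), TTGCNNAA (C/EBP), GAGGAA (PU.1), CACGTG (E-box), and the ISRE and DR4 motifs. The Clec4e window held 1 C/EBP match, TTGTGCAA, starting 66 bases before the start, and 2 PU.1 matches, of which GAGGAA lay 2 bases downstream of the C/EBP match. The Marco window held 1 NF-kB match, GGTCTTTCCC, 29 bases before the start, and 1 PU.1 match. The Mrc1 window held 1 NF-kB match, GGCAGCTCCC, and 3 PU.1 matches, and the Mertk window held 2 NF-kB matches, GGATCCTCCC and GGCCCCTCCC, and none of the other patterns. NF-kB matches were therefore present in windows of genes that rose and of genes that fell, and none was present in the window of Clec4e, the gene that rose most. Of all 32851 windows of this length, 17.6% held the NF-kB pattern, 9.56% the C/EBP pattern and 23.3% the PU.1 pattern. Axl had 1 NF-kB and 1 PU.1 match and Clec7a 1 PU.1 match. These matches are descriptions of letters and not of bound sites, and Msr1 and Clec4n were not analysed here for promoters.

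Total deposited counts were 48.2 to 60.9 M per library, and each member had between 1107 (Msr1) and 116969 (Marco) counts per library. Log2 levels over the genes tested correlated at 0.985 to 0.991 between libraries of a group, as the lowest r of each library with the others of its group. Alveolar macrophage markers (15 genes, among them Siglecf, Fabp4 and Lyz2) summed to 51043 to 54950 CPM (counts relative to the library's total, brought to a common total and scaled by TMM, a factor that evens out libraries of different composition) in WT medium and 56214 to 65369 CPM in Scnn1b-Tg medium, and to 28922 to 32968 and 30182 to 43743 CPM with LPS, where 10 of the 15 fell and 2 rose in each genotype. Markers of monocytes summed to at most 12.8 CPM and of neutrophils to at most 22.1 CPM. Of the neutrophil markers, S100a9 was at or near 0. S100a8, Cxcr2 and Csf3r averaged 2.86, 4.01 and 6.53 CPM in WT medium and 7.32, 0.186 and 2.86 CPM in WT LPS. In each genotype, 1 of the 3 neutrophil markers tested rose with LPS and 2 fell. Markers of interstitial macrophages summed to 11.6 to 17.9 CPM in medium and 1.99 to 3.50 CPM in LPS. Lyz2 was the largest part of the alveolar macrophage sum, at a mean of 33128 CPM in WT medium and 16600 CPM in WT LPS. Siglecf went from 115 to 11.1 CPM and Fabp4 from 235 to 25.4 CPM in the same groups. The share of the members' changes with LPS that goes with these shifts was not tested. Il1b, Tnf, Cxcl2 and Nfkbia, known LPS targets, all rose in both genotypes (4 of 4). Scnn1b itself was below 1 CPM in all 12 libraries, from 0 to 0.755 CPM with no called difference between the genotypes.

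The level of each member per kb of annotated exon was compared within each group to give the order of the receptors. In WT medium, Clec4n was the highest at 1034 CPM per kb (range 891 to 1158 over 3 libraries), followed by Clec7a at 368, Marco at 328 and Axl at 180, each separate from its neighbours in all 3 libraries. Mrc1 at 40.3 and Mertk at 39.1 CPM per kb overlapped, and Clec4e at 24.5 and Msr1 at 4.57 were last. Clec4n and Msr1 were thus the highest and the lowest receptors of resting WT cells, and Clec4e was the lowest of the lectins.

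The order was rearranged with LPS. In WT LPS, Clec4n at 1158 and Marco at 652 CPM per kb led, and Clec4e at 337 took the third place, separate from Clec7a at 194, which overlapped Axl at 177. Mrc1 at 14.8, Msr1 at 9.81 and Mertk at 8.82 CPM per kb formed the lower end, each overlapping its neighbour. Clec4e had moved from the seventh to the third place and Mertk from the sixth to the eighth.

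The order in Scnn1b-Tg AMs was similar at rest and after LPS. In Scnn1b-Tg medium the levels per kb were 690 for Clec4n, 408 for Clec7a, 266 for Marco, 232 for Axl, 49.4 for Mertk, 48.5 for Mrc1, 16.1 for Clec4e and 4.62 for Msr1, and Clec7a overlapped Marco, Marco overlapped Axl and Mertk overlapped Mrc1. In Scnn1b-Tg LPS, Clec4n at 950 overlapped Marco at 818, Clec4e at 403 took the third place, and Axl at 193 overlapped Clec7a at 179. Mrc1 at 14.8 and Mertk at 8.87 CPM per kb, with Msr1 between them, were again the lowest. With the longest transcript in place of merged exons, Marco and Axl exchanged places in Scnn1b-Tg medium, as did Mertk and Mrc1, and Mrc1 and Msr1 in Scnn1b-Tg LPS.

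**Figure D1:**
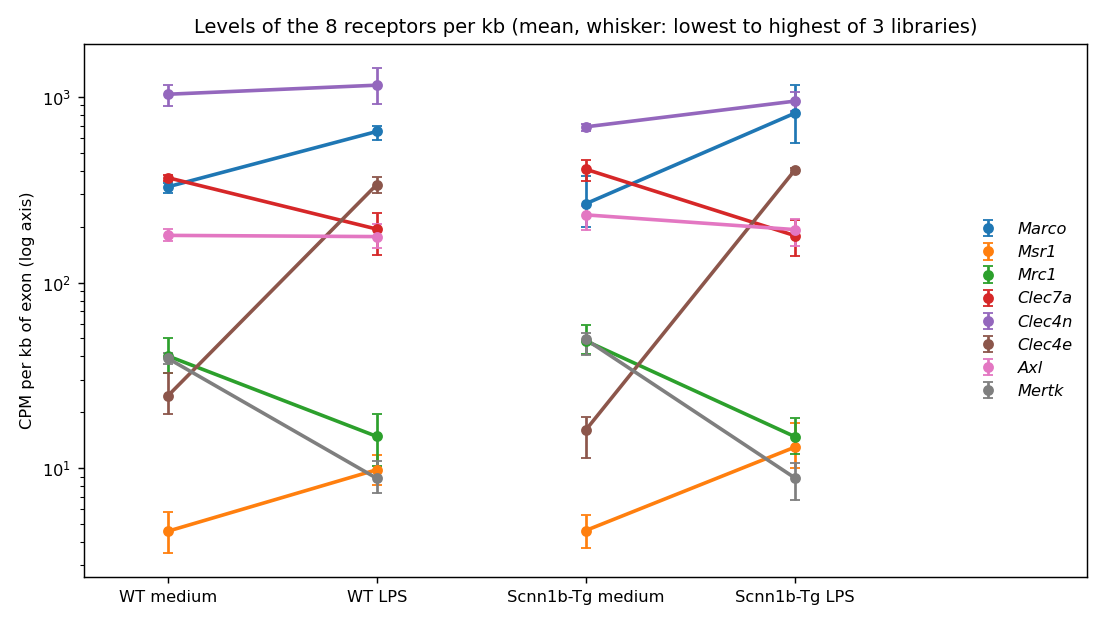
Levels of the 8 receptors per kb of merged exon, in CPM per kb on a log axis, for the 4 groups; points are means of 3 libraries, whiskers run from the lowest to the highest library, and lines join medium and LPS of a genotype. Clec4e climbed from 24.5 to 337 CPM per kb in WT and from 16.1 to 403 in Scnn1b-Tg AMs, while Mertk fell from 39.1 to 8.82 and from 49.4 to 8.87.

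As a share of the summed level per kb of the 8 receptors, Clec4n took 51.1% in WT medium and 45.1% in WT LPS, and 40.5 and 37.1% in Scnn1b-Tg medium and LPS. Clec4e, the second lowest share of the 8 in either medium group, reached 13.2% of the sum in WT LPS and went from 0.962 to 16.0% in Scnn1b-Tg AMs, whereas Clec7a went from 18.3 to 7.64% and from 23.8 to 6.98%. Axl and Mertk took 8.94 and 1.94% in WT medium and 7.01 and 0.349% in WT LPS. Marco went from 16.3 to 25.8% in WT and from 15.3 to 31.0% in Scnn1b-Tg AMs. Clec4n and Clec7a thus had the largest mean shares in medium, and Clec4n and Marco in LPS, in both genotypes.

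Cultures with and without LPS were set against each other to describe which receptors change when AMs meet a bacterial product. In WT AMs, 6 of the 8 members passed an adjusted p of 0.05 in edgeR's quasi-likelihood test, 3 higher and 3 lower, where 31.8% of the 13729 genes tested passed. The adjusted p is corrected over all genes tested by the Benjamini-Hochberg method. It rests on the spread between libraries that is left after terms for group and batch. Pool was not a term of this main fit, so the pairing of LPS and medium libraries was not used. In Scnn1b-Tg AMs, 7 of 8 passed, 4 higher and 3 lower, against 38.1% of all genes. At an unadjusted p under 0.05 the same counts of 6 and 7 members stood beside 40.8 and 45.8% of all genes. The 3 libraries of LPS and of medium did not overlap for 6 members in WT (38.7% of all genes) and 7 in Scnn1b-Tg AMs (43.8%). The median log2 change of the 8 members was 0.07 in WT and 0.10 in Scnn1b-Tg AMs, beside 0.00 and -0.02 over all genes tested, since rises and falls balanced. Clec4e, Marco and Msr1 rose and Mrc1, Clec7a and Mertk fell in both genotypes. The lectins therefore did not move as a family.

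**Figure D2:**
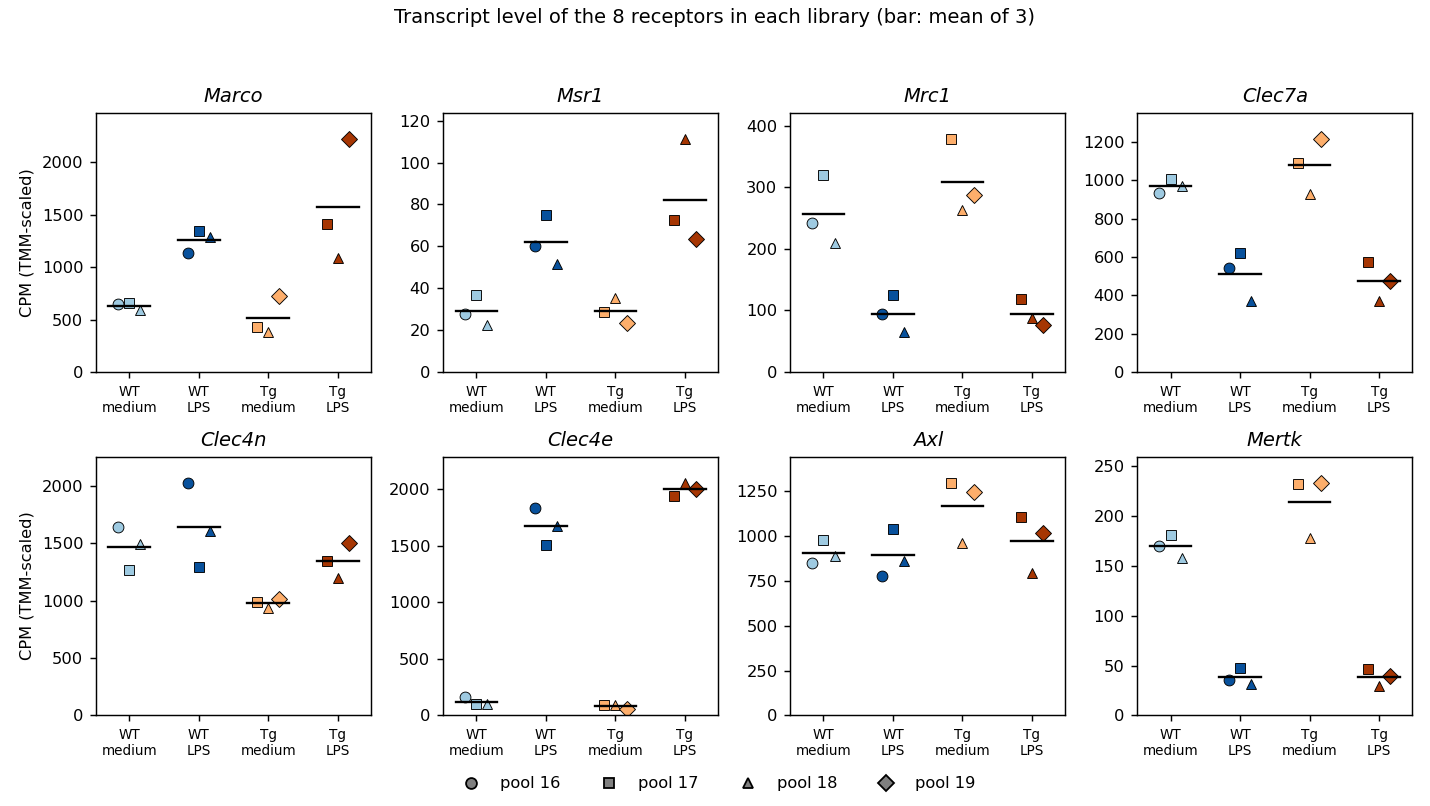
Level of each receptor in the 12 libraries, in TMM-scaled CPM on linear axes that start at 0; each point is 1 library, its shape gives the pool number, and the bar is the mean of 3. Clec4e lay between 56.5 and 162 CPM in the 6 medium libraries and between 1504 and 2059 CPM in the 6 LPS libraries, and the LPS and medium libraries of Mertk, Mrc1, Clec7a, Marco and Msr1 did not overlap within either genotype.

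Marco (ENSMUSG00000026390, chromosome 1, 120474538 to 120505024, mm10), the AM scavenger receptor for bacteria and particles, had 645, 661 and 587 CPM in WT medium (pools 16, 17 and 18) and 1131, 1348 and 1285 CPM in WT LPS. In Scnn1b-Tg AMs it had 429, 382 and 725 CPM in medium (pools 17, 18 and 19) and 1415, 1088 and 2220 CPM in LPS. Every LPS library was above every medium library, and pool 19 was the highest Scnn1b-Tg pool under either condition. Marco rose on the log2 scale by 0.99 ± 0.27 (SE) in WT, with an edgeR adjusted p of 0.0150, and by 1.62 ± 0.27 in Scnn1b-Tg AMs, with an edgeR adjusted p of 0.000641. Without the WT medium 18 library the WT value was 0.89 with an edgeR adjusted p of 0.0639.

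Msr1 (ENSMUSG00000025044, chromosome 8, 39581685 to 39642673), the class A receptor for modified lipoproteins, had 27.9, 36.9 and 22.2 CPM in WT medium and 60.4, 74.8 and 51.5 CPM in WT LPS. In Scnn1b-Tg AMs the values were 28.7, 35.5 and 23.6 CPM in medium and 72.4, 111 and 63.4 CPM in LPS. LPS and medium did not overlap, and the pool that was highest in medium was also highest in LPS in each genotype. Msr1 rose on the log2 scale by 1.10 ± 0.25 (SE) in WT, with an edgeR adjusted p of 0.00541, and by 1.50 ± 0.25 in Scnn1b-Tg AMs, with an edgeR adjusted p of 0.000643. Per kb, Marco stayed far above Msr1 in every library, with mean ratios of 61.9 to 74.1 over the 4 groups and single libraries from 32.2 to 115.

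Clec4e (ENSMUSG00000030142, chromosome 6, 123281789 to 123289870), the lectin that senses mycobacterial cord factor and products of dead cells, changed most. It had 162, 97.4 and 106 CPM in WT medium and 1836, 1504 and 1679 CPM in WT LPS. The Scnn1b-Tg values were 88.8, 93.8 and 56.5 CPM in medium and 1944, 2059 and 2004 CPM in LPS. The lowest LPS library was far above the highest medium library, and the 3 Scnn1b-Tg LPS values lay close together with an SD of 57.4 CPM around a mean of 2002 CPM. The log2 fold change was 3.79 in WT (SE 0.23, 13.8-fold, edgeR adjusted p = 5.12e-07) and 4.66 in Scnn1b-Tg AMs (SE 0.24, 25.2-fold, edgeR adjusted p = 9.99e-08).

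Clec4n (ENSMUSG00000023349, chromosome 6, 123229843 to 123247021), which encodes the mannan receptor dectin-2, lies 15.1 kb from Clec4d, which in turn lies 6.52 kb from Clec4e. Clec4n had 1644, 1265 and 1497 CPM in WT medium and 2029, 1294 and 1609 CPM in WT LPS, which overlapped. Scnn1b-Tg pools had 990, 933 and 1018 CPM in medium and 1344, 1199 and 1504 CPM in LPS, which did not. The log2 fold change was 0.16 (SE 0.16, 95% interval -0.18 to 0.51, edgeR adjusted p = 0.483) in WT and 0.46 (SE 0.16, 95% interval 0.12 to 0.81, edgeR adjusted p = 0.0380) in Scnn1b-Tg AMs. The Scnn1b-Tg call was not stable: it was lost on leaving out each of 7 of the 12 libraries in turn, with edgeR adjusted p of 0.0526 to 0.140, among them WT medium 18, WT LPS 18, all 3 Scnn1b-Tg medium libraries and Scnn1b-Tg LPS 17 and 19, and with no filter on low counts (0.0594). With a term for each pool the Scnn1b-Tg change of Clec4n was 0.46 with an edgeR adjusted p of 0.000911. It also passed by DESeq2 (adjusted p = 0.0191) and with pool as a random effect (limma adjusted p = 0.00768). With the replicate number in place of batch the edgeR adjusted p was 0.00596. The difference between the genotypes' changes was 0.30 (95% interval -0.19 to 0.79), with an edgeR adjusted p of 0.941.

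The other genes of the Clec4 cluster on chromosome 6 did not move together. Clec4d, the neighbour of both members and the partner of mincle, rose by 1.43 (SE 0.17) on the log2 scale in WT, where 121 ± 18.7 CPM became 330 ± 71.0 CPM, and by 1.99 (SE 0.17) in Scnn1b-Tg AMs, where 84.3 ± 10.2 CPM became 337 ± 73.6 CPM (mean ± SD, n = 3). Clec4a1 rose by 3.14 and 3.08 on the log2 scale from below 1 CPM, and Clec4b1 had falls of -2.58 and -2.78. Clec4a3 changed by -0.75 and -0.66, while Clec4a2, chosen after its values were seen, had values of 0.01 and -0.01 and did not pass. Genes that rose, genes that fell and genes that did not pass therefore lay side by side. Clec4a3 lost its WT call in 6 of the alternative fits.

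Clec7a (ENSMUSG00000079293, chromosome 6, 129461591 to 129472779), which encodes dectin-1 and is annotated as a polymorphic pseudogene in GENCODE M21, lies in another lectin cluster of the same chromosome, among Clec12a, Clec1b, Clec9a, Clec1a and Olr1. It had 935, 1004 and 970 CPM in WT medium and 543, 623 and 371 CPM in WT LPS. Scnn1b-Tg AMs had 1090, 925 and 1214 CPM in medium and 574, 368 and 475 CPM in LPS. All LPS libraries were below all medium libraries, and WT LPS 18 and Scnn1b-Tg LPS 18 were the lowest. The log2 change of Clec7a was -0.95 ± 0.16 (SE) in WT, with an edgeR adjusted p of 0.00107, and -1.21 ± 0.16 in Scnn1b-Tg AMs, with an edgeR adjusted p of 0.000149. As Clec7a fell and Clec4e rose, the ratio of Clec4e to Clec7a per kb went from 0.0671 ± 0.0217 to 1.83 ± 0.562 in WT and from 0.0406 ± 0.0148 to 2.34 ± 0.590 in Scnn1b-Tg AMs (SD, n = 3), without overlap between LPS and medium.

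Mrc1 (ENSMUSG00000026712, chromosome 2, 14229392 to 14332057), the mannose receptor and a common marker of alternatively activated macrophages, had 242, 320 and 209 CPM in WT medium and 93.5, 124 and 65.5 CPM in WT LPS. In Scnn1b-Tg AMs it had 378, 263 and 287 CPM in medium and 118, 88.0 and 76.4 CPM in LPS. LPS libraries were below medium libraries without overlap, and pool 17 was the highest of each genotype under either condition. The log2 change of Mrc1 was -1.46 ± 0.13 (SE) in WT, with an edgeR adjusted p of 1.07e-05, and -1.72 ± 0.14 in Scnn1b-Tg AMs, with an edgeR adjusted p of 2.34e-06. The ratio of Marco to Mrc1 per kb went from 8.33 ± 1.31 to 46.9 ± 15.7 in WT and from 5.64 ± 2.41 to 58.9 ± 32.3 in Scnn1b-Tg AMs.

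The TAM receptors parted with LPS. Mertk (ENSMUSG00000014361, chromosome 2, 128698956 to 128802894), the main efferocytosis receptor of resting macrophages, had 170, 181 and 158 CPM in WT medium and 35.5, 47.4 and 31.9 CPM in WT LPS. In Scnn1b-Tg AMs it had 232, 178 and 233 CPM in medium and 46.2, 29.4 and 39.8 CPM in LPS. It was lower in LPS in every pool, and the LPS levels of the genotypes, 38.3 ± 8.13 and 38.4 ± 8.47 CPM, overlapped. The log2 change of Mertk was -2.16 ± 0.15 (SE) in WT, with an edgeR adjusted p of 1.56e-06, and -2.49 ± 0.16 in Scnn1b-Tg AMs, with an edgeR adjusted p of 3.87e-07, the largest fall among the 8 members in either genotype.

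Axl (ENSMUSG00000002602, chromosome 7, 25757273 to 25788705), the TAM receptor characteristic of AMs, had 847, 978 and 886 CPM in WT medium and 775, 1036 and 860 CPM in WT LPS. In Scnn1b-Tg AMs it had 1296, 961 and 1241 CPM in medium and 1105, 793 and 1015 CPM in LPS. LPS and medium libraries overlapped in each genotype, although all 3 Scnn1b-Tg pools were lower with LPS. The log2 fold change was -0.02 (SE 0.14, 95% interval -0.33 to 0.29, edgeR adjusted p = 0.926) in WT and -0.27 (SE 0.14, 95% interval -0.58 to 0.04, edgeR adjusted p = 0.168) in Scnn1b-Tg AMs. With a term for each pool, which compares the LPS and medium libraries of the same animals, the Scnn1b-Tg value was again -0.27 with an edgeR adjusted p of 0.00593. With pool as a random effect it did not pass (limma adjusted p = 0.0562), nor by DESeq2 (0.155), so that the call of Axl depended on how pools were modelled. The WT interval excluded changes of the size seen for Mertk, and the ratio of Axl to Mertk per kb went from 4.60 ± 0.269 to 20.3 ± 2.56 in WT and from 4.68 ± 0.113 to 22.0 ± 1.31 in Scnn1b-Tg AMs (SD, n = 3), without overlap.

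The genes that encode the bridging ligands, chosen after their values were seen, were examined beside the TAM receptors. Pros1 had 64.3 ± 7.20 CPM in WT medium and 22.4 ± 3.69 CPM in WT LPS, a log2 change of -1.53 (SE 0.11), and 67.6 ± 10.1 and 19.5 ± 4.18 CPM in Scnn1b-Tg medium and LPS, a change of -1.80 (SE 0.11). Gas6 was near 1 CPM in medium, 0.942 ± 0.327 in WT and 1.31 ± 0.468 in Scnn1b-Tg AMs, and had log2 fold changes of -0.82 (edgeR adjusted p = 0.173) and -1.61 (edgeR adjusted p = 0.0107). Gas6 shares exon sequence with Tmem255b, so its low level is uncertain. Adam17 and Adam10, also chosen after their values were seen, which encode proteases that shed MERTK and AXL from the surface, had log2 fold changes of 0.42 and 0.38 (edgeR adjusted p = 0.0541 and 0.0689) and of -0.70 and -0.93 (edgeR adjusted p = 0.00534 and 0.000701) in WT and Scnn1b-Tg AMs.

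**Figure D3:**
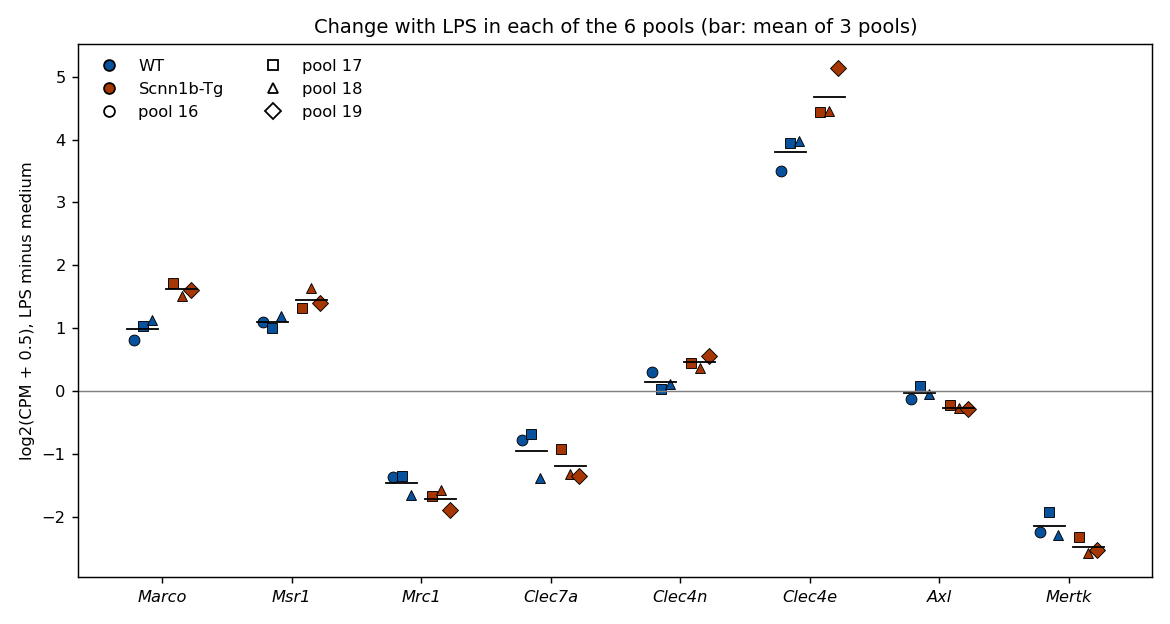
Change of each receptor with LPS in the 6 pools, as log2(CPM + 0.5) in LPS minus medium of the same pool; blue points are WT pools, brown points Scnn1b-Tg pools, shapes give the pool number, and bars are means of 3 pools. The sign was shared by all 6 pools for 7 receptors and differed for Axl. The Scnn1b-Tg pools lay farther from 0 than the WT pools, without overlap, for 6 of 8 receptors, beside 12.4% of all genes tested.

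Changes within each pool were compared next, because LPS and medium libraries of a pool hold cells of the same animals. Clec4e changed by 3.50, 3.94 and 3.99 on the log2(CPM + 0.5) scale in the WT pools and by 4.45, 4.45 and 5.14 in the Scnn1b-Tg pools, where pool 19 had the lowest medium level. Marco changed by 0.81, 1.03 and 1.13 in WT and by 1.72, 1.51 and 1.61 in Scnn1b-Tg pools, and Mertk by -2.24, -1.92 and -2.29 and by -2.32, -2.57 and -2.54. For Marco, Msr1, Clec4n, Clec4e, Axl and Mertk (6 of 8), the 3 Scnn1b-Tg pools lay farther from 0 than the 3 WT pools without overlap, a pattern found for 12.4% of all genes tested, and for Mrc1 and Clec7a the pools overlapped. Libraries were prepared in 2 batches, with WT 16, WT 17 and Scnn1b-Tg 17 in batch 1 and the other pools in batch 2. The signs of all called changes were the same within batch 1 and within batch 2. For Clec4e the within-batch changes were 3.72 and 3.99 in WT and 4.45 and 4.79 in Scnn1b-Tg AMs, for Mertk -2.08 and -2.29 and -2.32 and -2.56, and for Clec7a -0.74 and -1.39 and -0.93 and -1.34, with a single pool per genotype in 1 of the batches.

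Whether the change with LPS differed between the genotypes was tested with the interaction. No member passed (0 of 8, where 0% of all genes did), in edgeR or in DESeq2, which called 77 genes, and 1 member, Clec4e, had an unadjusted p under 0.05 against 5.95% of all genes. The change of Clec4e was larger in Scnn1b-Tg AMs by 0.87 on the log2 scale (SE 0.29, 95% interval 0.23 to 1.51, edgeR adjusted p = 0.672). Marco had a value of 0.64 (95% interval -0.18 to 1.46, edgeR adjusted p = 0.905), which was 0.29 without the Scnn1b-Tg LPS 19 library and 0.97 without Scnn1b-Tg medium 19. The other 6 members lay between -0.33 (Mertk) and 0.39 (Msr1), with edgeR adjusted p of 0.919 or more. With a term for each pool, the adjusted p of the 8 members ranged from 0.183 (Marco) to 0.719 (Clec7a).

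Scnn1b-Tg and WT AMs were compared in medium to ask whether the receptors differ before stimulation. Mrc1, Axl and Mertk were nominally higher and Clec4n and Clec4e nominally lower in Scnn1b-Tg AMs, but no member passed the adjusted threshold in edgeR (0 of 8, where 0.335% of all genes passed). An unadjusted p under 0.05 was found for 5 of 8 members, against 13.4% of all genes, and the groups did not overlap for 2 members, against 18.4%. DESeq2 called 1 of 8, Clec4n. Clec4n stood at 980 ± 43.4 CPM in Scnn1b-Tg medium against 1469 ± 191 CPM in WT medium (SD, n = 3), a log2 difference of -0.58 (SE 0.16, 95% interval -0.94 to -0.23, edgeR adjusted p = 0.156). Clec4e had 79.7 ± 20.3 and 122 ± 35.0 CPM, a difference of -0.57 (SE 0.21, edgeR adjusted p = 0.279). Every Scnn1b-Tg library was below every WT library for these 2 genes, and the differences within batches 1 and 2 were -0.54 and -0.62 for Clec4n and -0.50 and -0.53 for Clec4e.

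The 3 members with a higher nominal level overlapped between the genotypes. The log2 differences were 0.44 for Mrc1 (SE 0.14, edgeR adjusted p = 0.190), 0.42 for Axl (SE 0.14, edgeR adjusted p = 0.248) and 0.43 for Mertk (SE 0.15, edgeR adjusted p = 0.251), each in the same direction within both batches. Marco at -0.35 (95% interval -0.96 to 0.26), Msr1 at 0.08 (95% interval -0.49 to 0.65) and Clec7a at 0.24 (95% interval -0.12 to 0.61) had intervals that held 0. Marco in medium was -0.64 without the Scnn1b-Tg medium 19 library and -0.19 without Scnn1b-Tg medium 18, and with the replicate number in place of batch it was -0.67 and passed (edgeR adjusted p = 0.0226). Epithelial markers (9 genes, led by Scgb1a1 and Sftpc) summed to 92.0 to 113 CPM in WT medium and 45.9 to 81.3 CPM in Scnn1b-Tg medium, and their part in these values was not tested.

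Scnn1b-Tg and WT AMs were also compared after LPS. No member passed (0 of 8 in edgeR and in DESeq2, where 0.051% of all genes passed in edgeR), and 0 of 8 had an unadjusted p under 0.05, against 7.12% of all genes. Clec4e was the 1 member whose libraries did not overlap (9.11% of all genes), with 2002 ± 57.4 CPM in Scnn1b-Tg LPS against 1673 ± 166 CPM in WT LPS and a log2 difference of 0.30 (95% interval -0.17 to 0.76, edgeR adjusted p = 0.915). Msr1 was at 0.47 (95% interval -0.09 to 1.03, edgeR adjusted p = 0.799), and at 0.18 without the Scnn1b-Tg LPS 18 library. Clec4n was at -0.28 (95% interval -0.64 to 0.07), and Mertk at 0.10 (95% interval -0.24 to 0.44). The 3 Scnn1b-Tg values of Clec4e were thus below the WT values at rest and above them after LPS. Epithelial markers summed to 85.0 to 127 CPM in WT LPS and 38.4 to 71.7 CPM in Scnn1b-Tg LPS.

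**Figure D4:**
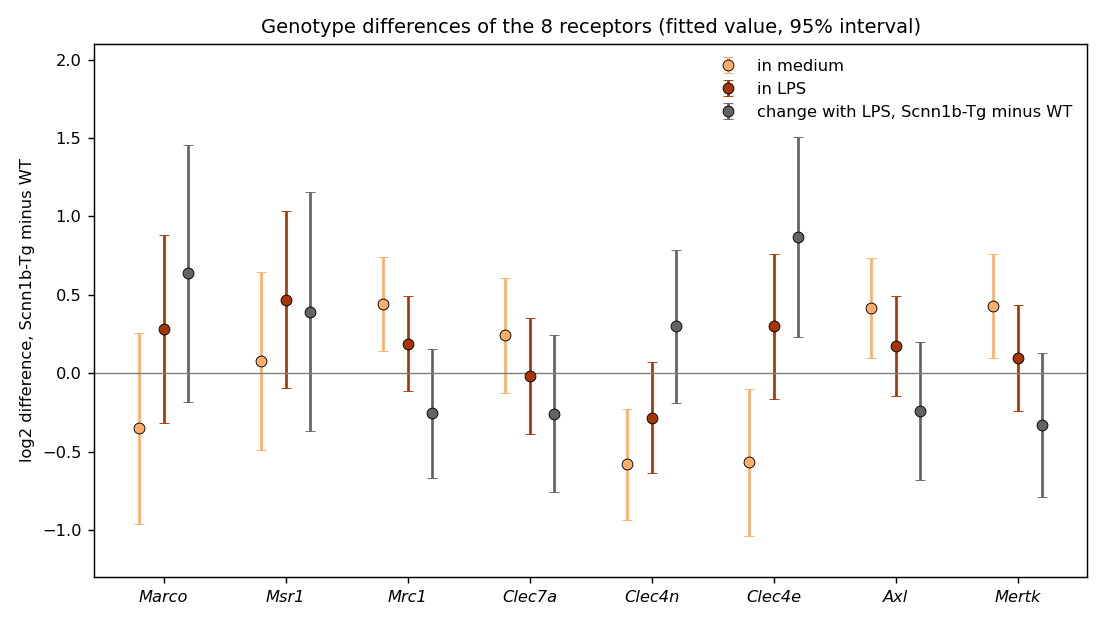
Fitted log2 differences between Scnn1b-Tg and WT AMs for the 8 receptors in medium, in LPS and for the change with LPS (the interaction). Whiskers are 95% intervals derived from the F statistic of edgeR's test. Intervals of Mrc1, Clec4n, Clec4e, Axl and Mertk in medium and of the Clec4e interaction left out 0 before adjustment, and none of the values passed the adjusted threshold.

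The other receptors of the same families were described from lists, whose counts stand beside 15.5% of all genes tested that rose and 16.2% that fell in WT, and 19.3% that rose and 18.7% that fell in Scnn1b-Tg AMs. Of 12 other scavenger receptors tested, 4 rose and 4 fell in WT and 4 rose and 4 fell in Scnn1b-Tg AMs, with median log2 changes of -0.11 and -0.37. Cd14, the LPS co-receptor, had 57.4 ± 9.23 CPM in WT medium and 575 ± 12.5 CPM in WT LPS, a log2 rise of 3.34 (SE 0.10), and 34.8 ± 2.62 and 598 ± 83.3 CPM in Scnn1b-Tg medium and LPS, a rise of 4.10 (SE 0.10). Cxcl16, a scavenger receptor and chemokine, rose by 3.34 and 3.20, and Stab1 by 1.48 and 1.73 from about 2 CPM. Cxcl16, Stab1, Card9, Fcgr2b and the earlier named Adam17 share exon bases with other genes and their levels are uncertain to that extent. The log2 changes were -0.83 and -0.92 for Colec12 and, for the lipoprotein receptors, -0.57 and -0.70 for Scarb1 and -0.39 and -0.97 for Lrp1, in WT and Scnn1b-Tg AMs. Cd14 was the 1 gene of this list called between the genotypes in medium, at a log2 difference of -0.79 (SE 0.09, edgeR adjusted p = 0.00975), and its call was lost without the WT medium 18, Scnn1b-Tg medium 17 or Scnn1b-Tg medium 19 library (edgeR adjusted p = 0.0574, 0.115 and 0.0567) and without the batch term (0.0555).

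Of 17 other lectins and glycan receptors tested, 2 rose and 7 fell in WT and 4 rose and 8 fell in Scnn1b-Tg AMs, with median log2 changes of -0.43 and -0.51. Clec1b, a platelet-type receptor gene in the cluster of Clec7a that shares exon sequence with Clec9a, had log2 changes of -1.91 and -2.57. Siglec1, the sialic acid receptor of tissue macrophages, had log2 changes of -0.72 (SE 0.24) and -1.57 (SE 0.24) in WT and Scnn1b-Tg AMs. Clec5a, which signals through the adaptor DAP12, rose by 0.75 (SE 0.14) in Scnn1b-Tg AMs and had a value of 0.26 (edgeR adjusted p = 0.175) in WT.

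Of 16 efferocytosis genes tested, 1 rose and 8 fell in WT and 1 rose and 10 fell in Scnn1b-Tg AMs, with median log2 changes of -0.42 and -0.85. Mfge8, a bridging protein for integrins, had log2 changes of -1.84 and -1.90 (SE 0.17 each), Cd300lf of -2.79 and -3.04, and Cd300a, which binds phosphatidylserine, of -2.14 and -2.27. The rise was that of Abca1, the cholesterol exporter, by 2.03 (SE 0.27) and 1.95 (SE 0.27).

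All 4 Fc gamma receptors fell in both genotypes, with median log2 changes of -1.62 and -1.77. Fcgr4 had 83.5 ± 5.47 CPM in WT medium and 7.29 ± 0.970 CPM in WT LPS, a log2 change of -3.52 (SE 0.13), and 110 ± 5.68 and 10.2 ± 1.44 CPM in Scnn1b-Tg medium and LPS, a change of -3.44 (SE 0.13). The log2 changes were -2.15 and -2.03 for Fcgr3 and -1.09 and -1.51 for Fcgr1. FCGR proteins bind antibody-coated particles, and their genes fell in the libraries in which Marco and Clec4e rose.

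Of 14 signalling genes below the lectin and Fc receptors, 7 rose and 4 fell in WT and 8 rose and 3 fell in Scnn1b-Tg AMs, with median log2 changes of 0.28 and 0.48. Fcer1g, the gamma chain through which dectin-2 and mincle signal, had 619 ± 72.1 and 1444 ± 256 CPM in WT medium and LPS, a log2 rise of 1.22 (SE 0.15), and 705 ± 83.8 and 1663 ± 238 CPM in Scnn1b-Tg AMs, a rise of 1.24 (SE 0.15). Syk, chosen after its values were seen, rose by 1.19 (SE 0.14) and 1.16 (SE 0.14), and Malt1, a protease of the CARD9 complex, by 2.55 (SE 0.09) and 2.86 (SE 0.09). Card9 changed by -0.74 (SE 0.12) and -0.53 (SE 0.12) from 7.63 ± 0.651 and 7.51 ± 1.44 CPM. Src rose by 4.09 and 4.90 from about 1 CPM, and Inpp5d, a phosphatase that limits the pathway, had log2 changes of -0.58 and -0.82. Cd14, Fcer1g, Syk, Malt1, Src and the other genes of these lists named with both values passed edgeR's adjusted threshold in both genotypes except where stated.

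**Figure D5:**
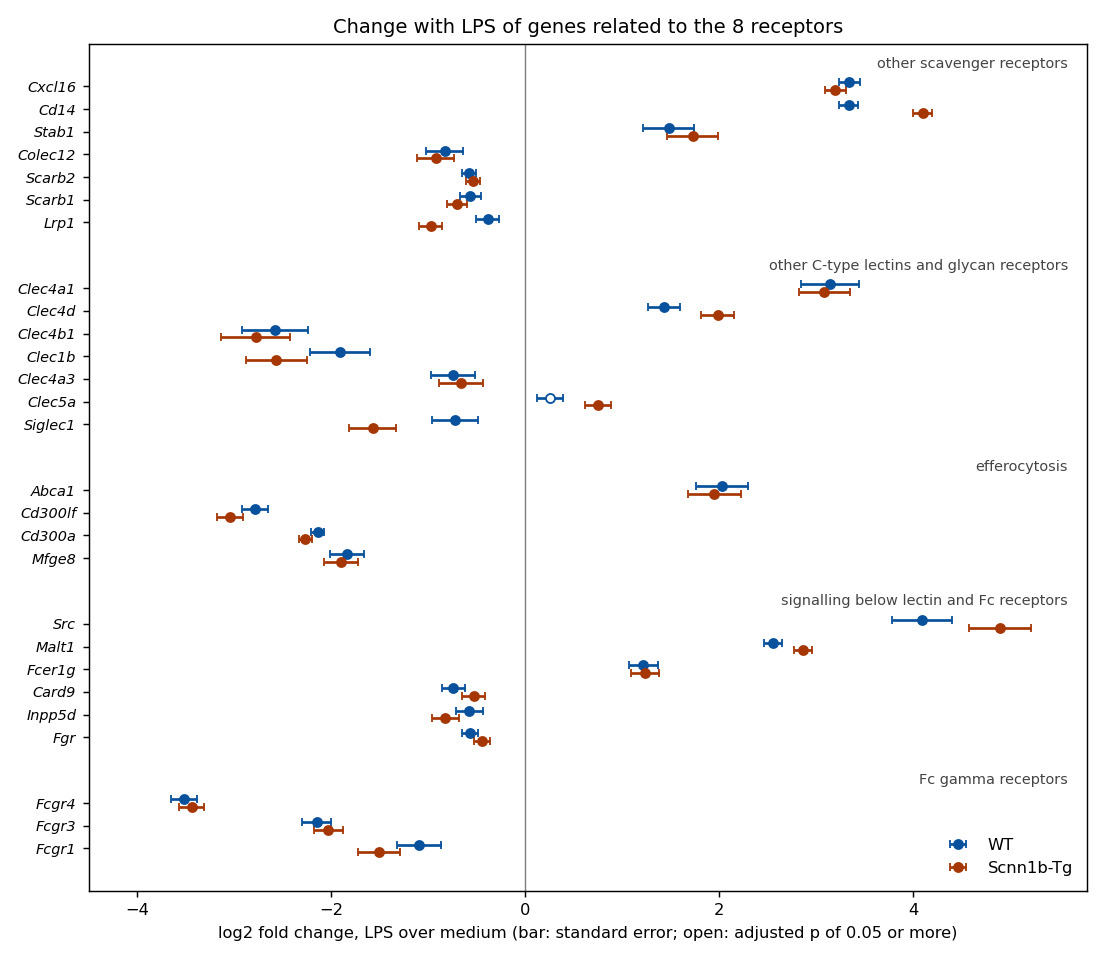
Log2 fold change with LPS of genes related to the 8 receptors, by list, with standard errors; blue points are WT, brown points Scnn1b-Tg AMs, and open points did not pass an adjusted p of 0.05. The Fc gamma receptors shown lay between -3.52 and -1.09, and Src, Cd14, Cxcl16 and Clec4a1 rose by 3.08 to 4.90.

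The genes whose levels followed each member most closely over the 12 libraries were found among 9101 genes of at least 5 CPM, as a description, since the libraries share treatment, batch and pool. Clec4e was followed most closely by Fas (Pearson r = 0.997), which encodes a death receptor, and Adora2a (r = 0.997), and Mertk by Plxnc1 (r = 0.997) and Pwwp2b (r = 0.995). The r were 0.991 for Mrc1 with Gm2a and with Slc39a11, 0.980 for Clec7a with Gtf2i and 0.979 with Ppp3ca, and 0.971 for Marco with Cox18 and 0.970 with Cdc37. They were 0.955 for Msr1 with Acsl1 and 0.949 with Cd33, 0.951 for Axl with Atg2a and 0.932 with Mink1, and 0.909 for Clec4n with Smu1 and 0.907 with Gm14681. Clec4n had the lowest r of the 8.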

How the data were processed

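Libraries (SMART-Seq v4, 125 bp paired-end reads per the study's methods) were aligned by the authors with HISAT2 to mm10 and assembled and counted per gene with StringTie against GENCODE M20. The authors deposited estimated counts per gene, which were rounded here. Of 47985 values between 1 and 30, 55.3% left a remainder of 0 or 3 on division by 5 (40% with an even spread), so deposited counts may be read counts multiplied by a constant. Counting used no strand. All 12 libraries were fitted with edgeR 4.0.16 (R 4.3.3; quasi-likelihood, TMM, a filter of 10 counts and 15 in total, terms for the 4 groups and 2 batches), two-sided, at an adjusted p of 0.05. Intervals are 95%. Alternatives used DESeq2 1.42.0 and limma 3.58.1. The edgeR fit was also run on simulated counts with known changes. These were drawn independently for each library without pool or batch effects, so they cannot show how the fit handles paired libraries. Total counts were 48.2 to 60.9 M per library, and precision was set by 3 pools per group. No deposited column was left unused (0 not used). Gene positions and exons came from GENCODE M21 (20132 of 20551 IDs matched) and promoters from RefSeq, which matched 6 of the 8 members.

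LPS and medium libraries of a pool came from the same animals, and their deviations from group means correlated in all 6 pools (r of 0.304, 0.497, 0.427, 0.484, 0.347 and 0.212). The members and gene lists were chosen with earlier results of these data known. Named related genes were the 3 largest rises and falls per list and comparison that passed and averaged at least 1 CPM, and for each member the 2 genes of at least 5 CPM with the highest r; others are marked as chosen after their values were seen.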

Additional observations from a re-analysis of the deposited data

Results flagged for a closer look

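For Clec4e, every Scnn1b-Tg library was below every WT library in medium (a log2 difference of -0.57) and above every WT library in LPS (0.30). Groups without overlap were found for 18.4% of all genes in medium and 9.11% in LPS. In medium the highest Scnn1b-Tg library had 93.8 CPM and the lowest WT library 97.4 CPM. The 95% interval of the Clec4e difference in LPS was -0.17 to 0.76 and held 0. The interaction of Clec4e, 0.87 on the log2 scale, did not pass after adjustment (edgeR adjusted p = 0.672), nor by DESeq2 (0.248) or with a term for each pool (edgeR adjusted p = 0.278).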

How the results depend on the processing

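With 3 pools per group, small differences between genotypes were not resolved. Over the members, 786 values kept direction and side of the threshold, 17 changed sign, 4 gained and 9 lost the call, and of the related genes 1037 were kept and 12 lost the call. The values that changed sign lay near 0, and the cause was not tested. For Axl with LPS in WT it was 0.00474 with no filter, 0.00568 in 6 libraries only, and -0.12 to 0.10 leaving out 1 library. Leaving out 1 library, Clec4n in WT ranged from -0.0254 to 0.31, Msr1 in medium from -0.15 to 0.24, and Marco and Clec7a in LPS from -0.00437 to 0.48 and from -0.21 to 0.0922. In LPS, Mrc1 was -0.00355 without batch, Clec7a 0.0605 in 6 libraries only, and Marco -0.0403 and Mertk -0.0688 with the replicate number as a block.

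Genes called between genotypes in medium numbered 46, and 500 by DESeq2, 18 with no filter, 28 without batch, 20 in 6 libraries only, 77 with the replicate number block and 3 to 49 leaving out 1 library. In LPS they numbered 7, and 146, 4 without batch, 2 in 6 libraries only, 11 with pool as a random block, 12 with the replicate number block and 2 to 10. For the interaction they numbered 0, and 77 by DESeq2 and 0 to 1. Members called in medium were 1 by DESeq2 (Clec4n) and 1 with the replicate number block (Marco, -0.67, edgeR adjusted p = 0.0226). WT and Scnn1b-Tg pools of the same number came from different animals but were prepared in the same batch. Their deviations from group means correlated at r of 0.28, 0.14, 0.44 and 0.31. Leaving out 1 library, members called with LPS ranged from 5 to 6 in WT and 6 to 7 in Scnn1b-Tg AMs, and the latter were 8 with a fixed term per pool or the replicate number block. The fixed term per pool changed no call of a member other than that of Axl, and pool as a random effect changed none. With the longest transcript, ranks in Scnn1b-Tg medium were 3 for Axl, 4 for Marco, 5 for Mrc1 and 6 for Mertk, and in Scnn1b-Tg LPS 6 for Msr1 and 7 for Mrc1.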
